A study of Mus musculus with 15 samples.

Results

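GSK126, a small-molecule inhibitor of the histone methyltransferase EZH2, was compared with its vehicle DMSO in B16-F10, a mouse melanoma cell line. The comparison used the 3 libraries labelled GSK126 and the 3 labelled DMSO, 6 of the 15 libraries of the series, and all 15152 genes that passed a filter on low counts, out of 46078 gene identifiers. GSK126 and DZNep, a second compound that inhibits S-adenosylhomocysteine hydrolase, were each given at 2 µM. A separate arm received siRNA against Ezh2 (siEzh2) or a scrambled siRNA (scr), again with 3 libraries a group. All 15 libraries came from total RNA of the same cell line, with no genotype difference given. The length of the treatments is not given in the sources used here, and nothing in them says whether the 3 libraries of a group came from separate cultures, so every p-value measures the spread between these libraries, which may be technical.

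EZH2 is the enzyme at the core of PRC2, a Polycomb complex that puts methyl groups on lysine 27 of histone H3 and so keeps developmental genes silent. GSK126 competes with the methyl donor S-adenosylmethionine in the catalytic site and leaves the protein in place, whereas an siRNA removes the messenger RNA and with it the protein. Melanocytes descend from the neural crest, where PRC2 holds back genes of other lineages. The RNA of Ezh2 is therefore no check of the inhibitor, and H3K27 methylation was not measured in the files used here.

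Total counts were 42087020, 43721698 and 64545747 in DMSO replicates 1 to 3 and 36855662, 43465903 and 41741072 in the GSK126 libraries, and the lowest of all 15 libraries was 33299524. DMSO replicate 3 was the deepest library and lay 0.381 to 0.416 log2 units (root mean square over genes) from the GSK126 libraries, and DMSO replicates 1 and 2 lay 0.330 to 0.353 from them. Within groups the distances were 0.282, 0.298 and 0.344 between DMSO libraries, the largest between replicates 1 and 3, and 0.258 to 0.277 between GSK126 libraries. GSK126 replicate 1 carries library number 3, apart from numbers 13 to 17 of the other 5, and next to numbers 4 to 9 of the siRNA arm. Its column name also holds an extra number that no other library has, and the labels do not say whether it was re-made or re-run. The mitochondrially encoded share of counts was 8.69% ± 0.503 with DMSO and 9.67% ± 0.862 with GSK126 (SD, n = 3 each), a difference that was not detectable with 3 libraries a group (two-sided exact permutation test, p = 0.2, smallest possible 0.1). All 7 melanocytic markers were present, at a summed 25500 to 25700 CPM (counts scaled for library size) with DMSO and 21400 to 21800 with GSK126. Most marker genes of other cell types were low, and Thy1, Dcn, Cd3e, Itgam, Cdh5, Krt5 and Krt14 were at 0 in all 6 libraries. Some were expressed: Fbln1 (147 to 214 CPM), Pdgfra (7.9 to 9.53), Postn (6.29 to 8.16), Pdgfrb (4.92 to 5.86) and Cd68 (2.2 to 2.77). Blood cell markers summed to 4.58 to 5.24 CPM (DMSO) and 4.16 to 4.77 CPM (GSK126). Fibroblast markers summed to 196 to 238 and 174 to 194 CPM, most of it Fbln1. Endothelial markers summed to 5.42 to 7.56 and 4.59 to 5.36 CPM, most of it Vwf (4.43 to 7.39 CPM), and keratinocyte markers to at most 0.0467 CPM.

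GSK126 changed 1923 of the 15152 genes, 12.7% of those tested, at an adjusted p under 0.05 (edgeR quasi-likelihood test, Benjamini-Hochberg adjustment over all genes). Of these, 1084 rose (7.15% of genes tested) and 839 fell (5.54%). Most changes were small. The median log2 fold change was 0.39 among the genes that rose and -0.28 among those that fell, and of the 1084 genes that rose 289 did so by less than 1.2-fold and 470 by 1.2 to 1.5-fold. At least a 2-fold change was seen for 133 genes that rose and 19 that fell, and at least 4-fold for 18 and 3. The 3 GSK126 libraries did not overlap the 3 DMSO libraries for 1073 of the genes that rose and 818 of those that fell. Among all genes tested, 15.6% and 15.1% did not overlap in these directions. Calls and overlap rest on the same 6 libraries, so called genes are nearly bound to show a gap. A lack of overlap, here and for single genes below, describes the values and is no separate support for a call. The counts depended on the libraries: without GSK126 replicate 1, 807 genes rose and 422 fell, and without DMSO replicate 3, 778 rose and 459 fell. In bulk RNA, fewer cells expressing a gene and less RNA per cell cannot be told apart.

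**Figure D1:**
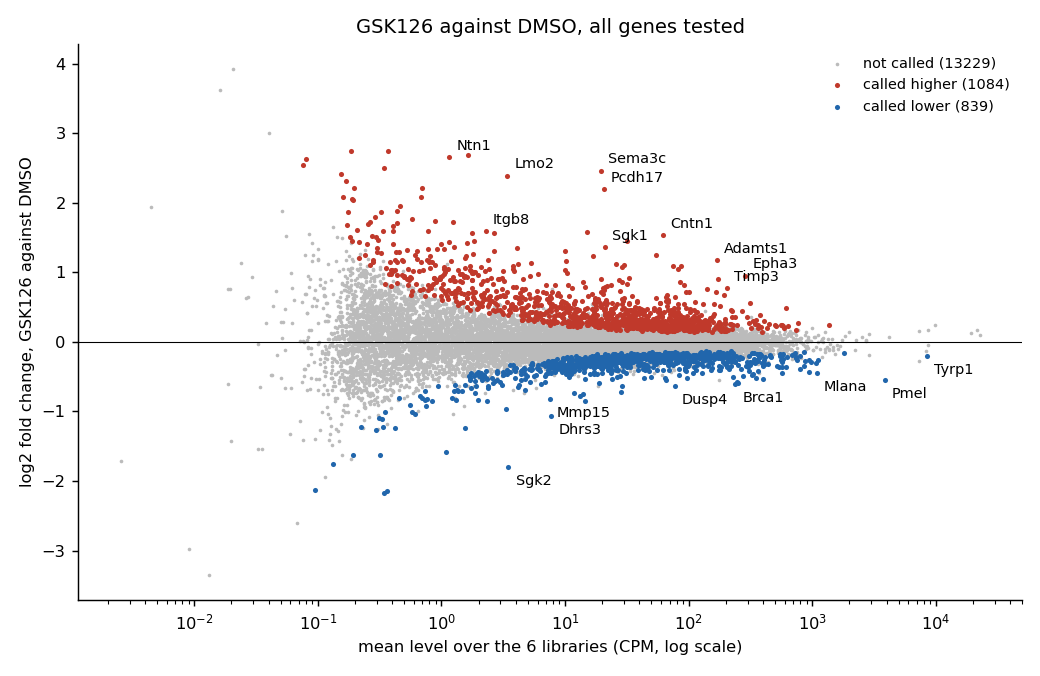
Log2 fold change of GSK126 against DMSO (vertical axis) by mean level over the 6 libraries in CPM (horizontal log axis), one point per gene tested, coloured by call. The 1084 genes called higher reach larger changes than the 839 called lower, and Sema3c, Pcdh17 and Lmo2 stand well above the other genes of their level.

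The PRC2 genes themselves moved little. Ezh2 stood at 204, 209 and 208 CPM in the DMSO libraries and 208, 212 and 221 CPM with GSK126, a log2 difference of 0.05 ± 0.05 (SE; adjusted p = 0.569). The groups overlapped at 208 CPM. Ezh1, the second catalytic subunit, had a log2 difference of -0.16 ± 0.07 (adjusted p = 0.163) and was not called. Of 6 core PRC2 genes tested, none rose and 2 fell, the histone-binding subunits Rbbp7 by 1.16-fold and Rbbp4 by 1.12-fold; the Rbbp4 call was lost in 9 alternatives, among them without DMSO replicate 3. The scaffold Suz12 (log2 difference 0.04) and the H3K27me3 reader Eed (-0.04) were not called. None of 7 tested H3K27 demethylases and H3K36 methyltransferases was called. Among 20 genes of PRC1, the sister complex that reads the mark, Bmi1 rose from 193, 189.9 and 183 CPM to 258, 251 and 260.3 CPM, a log2 change of 0.44 ± 0.05 (adjusted p = 3.92e-06). All 3 treated libraries lay above the 3 controls. Bmi1 kept its call under every alternative tried, whereas the small rise of the ubiquitin ligase Rnf2 (0.17) lost it in 8. The chromobox gene Cbx6 fell by 1.18-fold, and the ubiquitin ligase Ring1 fell by 1.25-fold, a call that was lost without DMSO replicate 3 or GSK126 replicate 1.

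Secreted guidance cues and neural adhesion molecules were among the genes with large rises, beside others such as the cofactor Lmo2, described with the transcription factors. Sema3c, a secreted class 3 semaphorin that steers axons and neural crest cells (ENSMUSG00000028780, chr5:17574281-17730268, GRCm38), stood at 6.58, 5.89 and 5.61 CPM with DMSO and 34.1, 30.7 and 34.5 CPM with GSK126. The groups were far apart, and Sema3c rose 5.51-fold (log2 2.46 ± 0.10, adjusted p = 8.00e-13). Pcdh17, a nonclustered protocadherin that mediates adhesion between neurons (ENSMUSG00000035566, chr14:84443563-84539002), went from 7.82, 7.78 and 6.64 CPM to 35.2, 31.6 and 34.4 CPM. It rose 4.57-fold (log2 2.19 ± 0.08, adjusted p = 6.81e-13), with every treated library far above every control.
Cntn1, a contactin anchored in the neuronal membrane (ENSMUSG00000055022, chr15:92051165-92341967), stood at 34.0, 32.7 and 29.1 CPM with DMSO and 94.9, 90.9 and 91.8 CPM with GSK126. It rose 2.90-fold (log2 1.54 ± 0.07, adjusted p = 1.40e-11), again without overlap. Ntn1, which encodes the guidance cue netrin 1 (ENSMUSG00000020902, chr11:68209364-68400823), was low at 0.215, 0.419 and 0.308 CPM and reached 1.85, 1.96 and 2.19 CPM, a 6.32-fold rise (log2 2.66 ± 0.24, adjusted p = 2.42e-07). At these low levels the spread between the DMSO libraries was wide, but none came near the treated ones.

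Among the 15 largest increases, Pcdh17 and Cntn1 ranked highest of those whose RefSeq promoter window lay clear of any annotated exon, and their 250 bases upstream of the start site are shown to set 2 kinds of promoter side by side. The windows are from RefSeq on GRCm38.p6, plus strand, at chr14:84443313-84443562 for Pcdh17 and chr15:92050915-92051164 for Cntn1, with CG dinucleotides in capitals.
Pcdh17: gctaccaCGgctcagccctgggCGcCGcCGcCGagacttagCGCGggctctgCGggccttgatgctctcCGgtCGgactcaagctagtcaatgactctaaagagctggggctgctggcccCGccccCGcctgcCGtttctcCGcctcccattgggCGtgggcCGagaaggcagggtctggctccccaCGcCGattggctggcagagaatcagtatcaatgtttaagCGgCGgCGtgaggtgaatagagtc
Cntn1: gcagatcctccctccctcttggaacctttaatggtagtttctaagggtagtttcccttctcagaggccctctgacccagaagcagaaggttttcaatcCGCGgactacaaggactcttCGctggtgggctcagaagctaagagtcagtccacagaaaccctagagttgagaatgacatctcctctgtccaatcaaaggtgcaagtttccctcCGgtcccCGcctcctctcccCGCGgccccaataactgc
The Pcdh17 window holds 21 CG dinucleotides, a ratio of observed to expected CG of 0.8, and the Cntn1 window holds 7, a ratio of 0.405. CG-rich promoters are the usual sites of PRC2 in mammals. PRC2 occupancy was not measured in the files used here.

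The Eph, ephrin, Slit, Robo and netrin genes that were called all rose, whereas semaphorin, plexin and neuropilin genes were called in both directions. Of 29 tested Eph receptors, ephrins, Slits, Robos and netrins, 9 rose and none fell (median log2 difference 0.29, against -0.01 over all genes). Epha3, a receptor tyrosine kinase for ephrins, was already high at 196, 202 and 190.0 CPM and rose to 384, 382 and 373 CPM (log2 0.95 ± 0.05, adjusted p = 1.28e-10). All 3 treated libraries lay well above the 3 controls. Epha7, its close relative, rose 2.35-fold, the repellent Slit2 1.66-fold and its receptor Robo1 1.37-fold. Of 29 semaphorins, plexins and neuropilins, 5 rose and 3 fell, and 1 fell without DMSO replicate 2 or without GSK126 replicate 3, where Sema6b and Nrp2 lost their calls. Besides Sema3c, Sema3d (2.70-fold) and Sema3g (1.63-fold) rose, as did the receptor genes Plxna2 (2.77-fold, 0.139 to 0.553 CPM in the 6 libraries, lost without GSK126 replicate 2) and Plxna4 (1.48-fold). Plxnd1, a receptor for class 3 semaphorins, fell by 1.34-fold from 436, 402 and 409.9 CPM to 312, 309 and 312 CPM, and the co-receptor Nrp2 fell by 1.16-fold. Of 10 tested markers of a neural crest-like state, 1 was called, against 12.7% over all genes tested, so this list did not stand out. The called gene was Ngfr, the low-affinity nerve growth factor receptor. Ngfr went from 1.08, 0.908 and 0.970 CPM to 2.31, 3.34 and 2.36 CPM (2.72-fold, adjusted p = 2.88e-05).

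**Figure D2:**
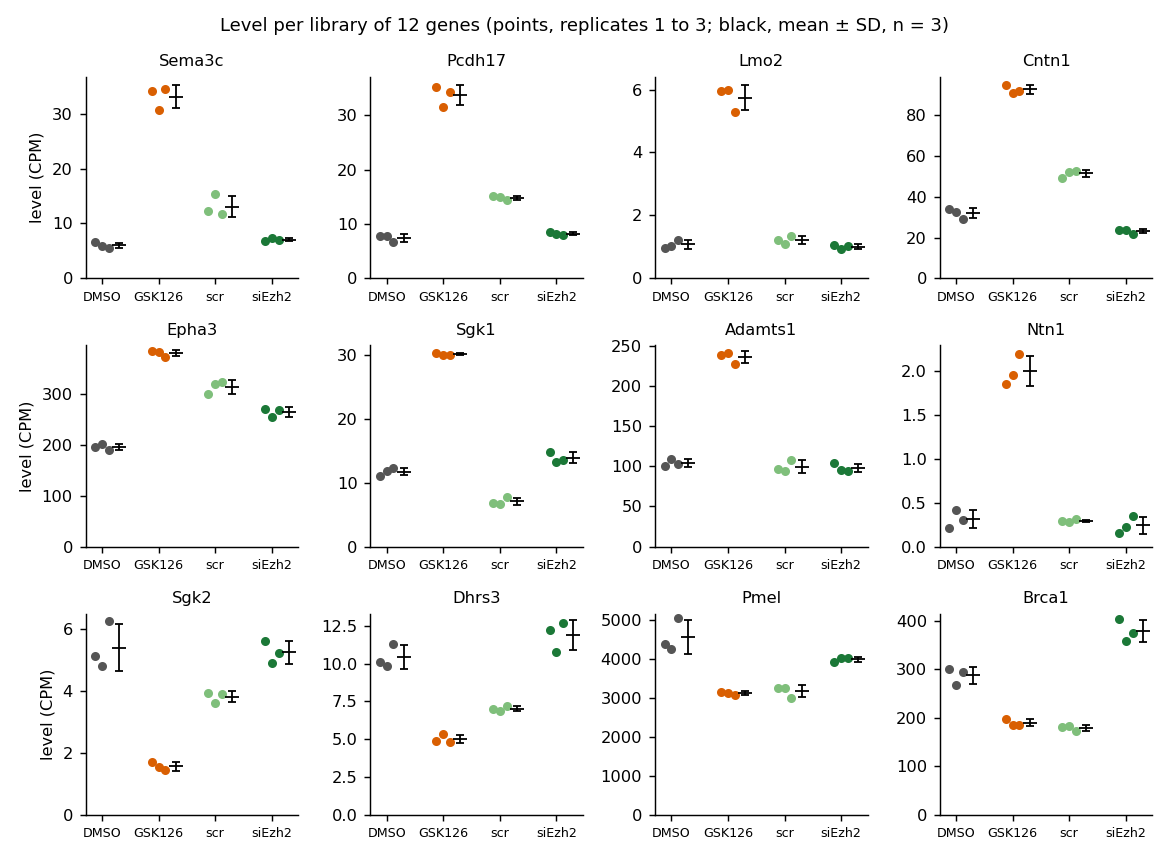
Level in CPM (vertical axes, from 0) of 12 genes in each library of 4 groups, with points for replicates 1 to 3 and black bars for the mean ± SD (n = 3). The 12 were picked from genes called with GSK126, so the gap between the GSK126 and DMSO libraries in each panel follows largely from that choice. The 2 control groups, scr and DMSO, also differ for genes such as Sema3c, Pmel and Brca1.

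Called genes of adhesion and the extracellular matrix rose more often than they fell, as did called genes over all tested (7.15% rose and 5.54% fell). Among 20 integrin genes, 7 rose and none fell, with 17 of 20 differences above 0. Itgb8, whose product activates latent TGF-beta, rose 3.01-fold from 1.15, 1.44 and 0.863 CPM to 3.67, 3.32 and 3.21 CPM (log2 1.59 ± 0.16, adjusted p = 6.76e-07). Its alpha partner Itgav rose 1.36-fold and the laminin receptor Itga6 1.32-fold, while the fibronectin receptor Itga5 rose 1.22-fold. Of 35 collagen, laminin and other matrix genes, 9 rose and 4 fell, with 20 of 35 differences above 0. Fn1 (fibronectin, 1.51-fold), Col4a1 (1.35-fold) and Col4a2 (1.27-fold), the paired chains of basement membrane collagen, rose. The paired chains of type I collagen went opposite ways at low level: Col1a2 rose from 3.52, 2.84 and 3.19 CPM to 5.50, 6.24 and 6.13 CPM, and Col1a1 fell from 0.956, 1.12 and 0.909 CPM to 0.563, 0.645 and 0.340 CPM, a call lost without GSK126 replicate 3. The linker protein gene Nid1 fell by 1.43-fold.
Of 30 metalloproteinases and their inhibitors, 7 rose and 3 fell, with 16 of 30 differences above 0. Adamts1, a secreted protease that cleaves proteoglycans, stood at 99.8, 109.7 and 103 CPM with DMSO and 239, 241 and 227 CPM with GSK126 (log2 1.18 ± 0.06, adjusted p = 4.07e-11). All 3 treated libraries were more than 2-fold above the highest control. Its relative Adamts5 (log2 1.14) and the membrane-bound proteases Adam12 (2.15-fold) and Adam19 (1.76-fold) rose, and so did the inhibitor Timp3 (1.71-fold). The gelatinase Mmp2 fell by 1.55-fold and the membrane-type Mmp15 by 1.77-fold. Both N-cadherin (Cdh2, 1.22-fold) and T-cadherin (Cdh13, 1.47-fold) rose among 10 genes of epithelial-mesenchymal transition. Angpt2, the antagonist of the vessel receptor Tie2, rose 2.37-fold from 29.4, 34.9 and 32.7 CPM to 80.8, 77.0 and 71.8 CPM.

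Signalling genes moved in both directions within the same family. Sgk1, a kinase of the AKT group induced by glucocorticoids and salt, was at 11.1, 11.8 and 12.2 CPM with DMSO and 30.2, 30.0 and 29.9 CPM with GSK126. It rose 2.57-fold (log2 1.36 ± 0.07, adjusted p = 4.07e-11) with little spread in either group. Its relative Sgk2 had the largest decrease among the named genes (ENSMUSG00000017868, chr2:162987330-163014127): 5.14, 4.80 and 6.25 CPM with DMSO and 1.72, 1.54 and 1.44 CPM with GSK126, 3.48-fold lower (log2 -1.80 ± 0.13, adjusted p = 5.29e-09). Among 25 genes of MAPK feedback and AP-1, 5 rose and 3 fell (32.0% called, against 12.7% over all genes tested). The ERK phosphatase Dusp6 rose 1.81-fold (57.7, 64.1 and 60.6 CPM to 106, 116 and 109 CPM), while Dusp4, another ERK phosphatase, fell by 1.56-fold (99.7, 92.3 and 90.2 CPM to 61.3, 57.1 and 62.6 CPM). The ETS factor Etv1 rose 1.93-fold; the number of this list that rose was 3 without GSK126 replicate 3.
Of 13 tested Wnt feedback genes and targets, 4 rose and 1 fell. Rnf43 and Znrf3, ligases that clear Wnt receptors, rose 4.13-fold and 1.40-fold, Rnf43 at no more than 0.415 CPM and without its call when GSK126 replicate 2 was left out. Tcf7 (1.46-fold) and Ccnd1 (cyclin D1, 1.42-fold) rose, and Axin2, the usual reporter of Wnt activity, fell by 1.25-fold. Of 22 receptors and regulators of TGF-beta and BMP signalling, 6 rose, Tgfbr3 the most (1.37-fold), but the number was 2 when DMSO replicate 3, or either of GSK126 replicates 2 and 3, was left out. Pmepa1, a feedback inhibitor of TGF-beta signalling, fell by 1.72-fold. Notch3, a receptor, rose by 1.07 on the log2 scale, 1 of 10 Notch genes.

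Developmental transcription factors are the classical Polycomb targets. Of 39 Hox genes listed, 20 passed the filter and 2 were called: Hoxa10 (1.18-fold, lost without GSK126 replicate 3) and Hoxd13 (1.27-fold) rose. Of 61 other developmental factors 26 passed the filter and 7 were called (26.9%, against 12.7% over all genes tested), 4 of which rose and 3 fell. The number that rose was 2 when DMSO replicate 3, GSK126 replicate 2 or GSK126 replicate 3 was left out. In these fits Foxa1 and Sall3 lost their calls. Tbx15 (1.58-fold) and Foxc1 (1.47-fold) kept their calls in every alternative that gave them an adjusted p. The 3 that fell did so by 1.11-fold to 1.39-fold, and none of those calls remained without DMSO replicate 2, without DMSO replicate 3 or without GSK126 replicate 1. Lmo2 had a larger change than any of these. It encodes a LIM-only cofactor that bridges transcription factors in blood and vessel precursors (ENSMUSG00000032698, chr2:103957986-103981878), and it went from 0.980, 1.02 and 1.23 CPM to 5.95, 5.99 and 5.30 CPM, 5.24-fold higher (log2 2.39 ± 0.14, adjusted p = 5.80e-10). No treated library came near a control. Lmo1 rose 1.42-fold, and their partner Ldb1 fell by 1.16-fold, a call lost without any 1 of the 3 GSK126 libraries or without DMSO replicate 3.
Among 17 imprinted genes tested, Mest (2.73-fold, 15.5, 18.5 and 16.9 CPM to 45.9, 45.2 and 47.9 CPM), the retrotransposon-derived Peg10 (1.65-fold) and its neighbour Sgce (1.17-fold, lost without GSK126 replicate 1 or GSK126 replicate 3) rose, and Slc22a18 fell by 1.43-fold. The INK4 inhibitors Cdkn2a and Cdkn2b did not pass the filter on low counts, so their response to GSK126 was not tested. Il12b and Wfdc8 had 3 counts or fewer over the 3 DMSO libraries and were called higher, but both calls were lost without DMSO replicate 3 and without GSK126 replicate 2.

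The called genes of the melanosome lists all fell, while most genes of melanosome transport and melanin synthesis were not called. Of 13 genes of the melanosome matrix and membrane, 8 fell and none rose (median log2 difference -0.28). Called were 61.5% of them, against 12.7% of all genes tested. Pmel, which forms the fibrils on which melanin is laid down (ENSMUSG00000025359, chr10:128704195-128720238), stood at 4371, 4256 and 5060 CPM with DMSO and 3162, 3125 and 3070 CPM with GSK126. It fell by 1.46-fold (log2 -0.55 ± 0.06, adjusted p = 5.91e-06), the largest loss in CPM of any called gene, with no overlap between groups. Mlana, a melanosome membrane protein, fell by 1.36-fold from 1160, 1243 and 1344 CPM to 964, 916 and 879.9 CPM. Tspan10, a tetraspanin, fell by 1.44-fold, and the pigment receptor Gpr143 by 1.25-fold. The number that fell was 4 without GSK126 replicate 2 and 5 without GSK126 replicate 3.
Of 22 genes of melanosome biogenesis and transport, 7 fell and none rose. Hps4 and Hps3, subunits of sorting complexes that build melanosomes, fell by 1.45-fold and 1.32-fold. The small GTPases Rab38 and Rab32, which act with them, fell by 1.26-fold and 1.25-fold, and Mlph, which ties melanosomes to actin, by 1.24-fold. The enzymes of melanin synthesis moved less: Tyrp1 fell from 9095, 8934 and 9126 CPM to 7692, 7749 and 8066 CPM (1.16-fold, adjusted p = 0.00554), whereas Tyr (log2 difference 0.06 ± 0.06) and Dct (-0.13 ± 0.07) were not called. Of 14 lineage factors and receptors, 5 fell and 1 rose, the growth factor receptor Met (1.13-fold, lost in 5 alternatives). Pax3, a neural crest factor upstream of Mitf, fell by 1.28-fold (336, 336 and 346 CPM to 261, 266 and 266 CPM), and the neuregulin receptor Erbb3 by 1.44-fold (116, 117 and 113 CPM to 81.3, 81.7 and 77.3 CPM). Mc1r, the melanocortin receptor, fell by 1.19-fold. The master regulator Mitf itself had a log2 difference of -0.15 ± 0.06 (adjusted p = 0.0948) and Sox10 one of -0.09 ± 0.08, neither called.

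Tspan10 and Mc1r had the smallest p-values in the pigment lists among genes whose promoter window was free of exons, and their upstream 250 bases are shown with E-boxes in capitals, since E-boxes of the form CACGTG or CATGTG (read on either strand, so that CACATG is the reverse complement of CATGTG) are the motifs that MITF and the TFE factors bind. The windows are RefSeq, GRCm38.p6, plus strand, at chr11:120442381-120442630 for Tspan10 and chr8:123406832-123407081 for Mc1r.
Tspan10: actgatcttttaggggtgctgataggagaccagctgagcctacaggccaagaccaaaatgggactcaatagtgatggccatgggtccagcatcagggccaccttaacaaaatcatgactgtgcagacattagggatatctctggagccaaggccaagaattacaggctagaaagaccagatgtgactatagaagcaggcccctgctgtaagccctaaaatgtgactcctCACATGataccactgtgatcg
Mc1r: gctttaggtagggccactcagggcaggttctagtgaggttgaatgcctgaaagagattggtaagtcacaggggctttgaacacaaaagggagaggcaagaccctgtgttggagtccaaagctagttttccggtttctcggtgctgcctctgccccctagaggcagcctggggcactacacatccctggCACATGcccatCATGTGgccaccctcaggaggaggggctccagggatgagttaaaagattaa
The Tspan10 window holds 1 such match and the Mc1r window 2. An E-box of either form was present in the 300-base RefSeq window (250 bases before and 50 after the start) of 19 of 41 pigment genes with a window (46.3%) and in 8 of the 13 that fell (61.5%), against 1831 of 10395 tested genes (17.6%). The match is a description of the letters, and binding was not measured.

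Among genes of the vacuolar proton pump, which acidifies lysosomes and melanosomes, all that were called fell. The share that fell over all genes tested, to set beside the counts here, was 5.54%. Of 10 genes for the catalytic V1 sector, 6 fell, none rose and all 10 differences were below 0 (median log2 -0.23). Atp6v1g1 fell by 1.29-fold (207, 228 and 250.1 CPM to 169, 184 and 179 CPM), Atp6v1b2 by 1.22-fold and Atp6v1e1 by 1.21-fold. Of 10 genes of the membrane V0 sector and its accessory proteins, 5 fell, among them Tcirg1 (1.26-fold) and Atp6v0b (1.26-fold). Of 38 lysosomal hydrolases 10 fell and 1, Ctso, rose; the proteases Ctsb (1.29-fold) and Ctsd (1.24-fold) and the glycosidase Man2b1 (1.21-fold) were among those that fell. Of 19 lysosomal membrane proteins and TFE factors 5 fell, the cystine exporter Ctns by 1.31-fold. Without DMSO replicate 3 the hydrolases that fell numbered 6 and the membrane genes 2, and Tfeb lost its call. E-boxes were found in 21 of 61 V-ATPase and lysosomal promoters (34.4%) and in 8 of the 19 that fell (42.1%), against 17.6% of 10395 tested genes.

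Interferon-stimulated genes were more often lower than higher. Of 39 tested, 7 fell, 1 rose and 30 differences were below 0 (median log2 -0.21). Called were 20.5% of them, against 12.7% of all genes tested, of which 5.54% fell and 7903 of 15152 had a difference below 0. The antiviral RNA-binding proteins Ifit1 (8.44, 8.29 and 8.59 CPM to 6.25, 6.43 and 5.86 CPM) and Ifit3 fell by 1.37-fold and 1.38-fold, the GTPase Gbp2 by 1.37-fold, and the chemokine Ccl5 by 1.75-fold at 1.70 CPM or less. Cmpk2, a mitochondrial nucleotide kinase, rose 1.58-fold. The MHC class I genes were mostly not called (1 of 19 rose and 2 fell, 15.8% called, against 12.7% over all genes tested). Their activator Nlrc5 rose 1.74-fold, and Tapbp, which loads peptide, fell by 1.31-fold. Of 9 checkpoint ligands tested, Cd276 rose 1.37-fold, and Cd274 (PD-L1) rose 1.19-fold, a call lost in 7 alternatives.

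Stress genes showed small shifts, to be read beside the 7.15% of all genes tested that rose and the 5.54% that fell. Of 30 ATF4-driven stress genes 8 rose and none fell, Cth, the enzyme that makes cysteine, by 1.39-fold and Atf3 by 1.38-fold, but only 4 did so without DMSO replicate 2 or without GSK126 replicate 3. Of 20 genes of protein folding in the endoplasmic reticulum 7 fell, Hspa5 (BiP) by 1.19-fold, and 2 without DMSO replicate 2 or 1 without GSK126 replicate 3. Of 27 p53 targets 6 rose and none fell (22.2% called), Cdkn1a (p21) by 1.23-fold and Plk2 by 1.44-fold, with 19 differences above 0 and 8 below. The other 21 were not called, among them Mdm2 (log2 difference -0.04), Bax (-0.12) and Bbc3 (-0.03). Polk and Ddit4, among the 6, lost their calls without GSK126 replicate 2. Of 29 genes of sterol and fatty acid synthesis 4 rose and none fell (13.8% called, against 12.7% over all genes tested). The rises were at most 1.19-fold, and none was called without GSK126 replicate 2. In retinoid metabolism, Dhrs3, which reduces retinaldehyde to retinol, fell by 2.08-fold (10.1, 9.85 and 11.3 CPM to 4.91, 5.34 and 4.79 CPM; log2 -1.06 ± 0.09, adjusted p = 1.43e-07), while Cyp26b1, which degrades retinoic acid, rose 1.26-fold, a call lost without GSK126 replicate 2 or GSK126 replicate 3. The genes of cell division were nearly all uncalled: none of 34 S phase genes and 1 of 35 G2 and M phase genes, Cdc20, which fell by 1.21-fold. Brca1, a DNA repair gene, fell from 300.3, 268 and 294 CPM to 198, 185 and 185 CPM (log2 -0.60 ± 0.06, adjusted p = 3.02e-07), with no overlap. Of the 212 genes chosen by rule, 61 overlap another annotated gene, 57 of them one on the opposite strand, among them Mest (Copg2), Timp3 (Syn3), Pmel (Cdk2 and Dgka), Enho (Dnaic1), Hps3 (Cp), Ctsb (Fdft1), Ccnd1, Rb1 and the Col4a1 and Col4a2 pair. Whether counting used strand is not given in the sources used here, so their reads may be shared.

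Some of the larger changes lay outside the lists. Among genes that rose were Map7d2, which binds microtubules (2.46-fold, 6.91, 5.78 and 4.88 CPM to 14.2, 14.1 and 14.6 CPM), Msrb3, which repairs oxidised methionine (2.23-fold), Coch, a matrix protein of the inner ear (2.46-fold), and Nckap5 (2.95-fold). At higher levels, the chaperone gene Dnajc1 rose from 124, 125 and 112 CPM to 225, 227 and 222 CPM, and the adhesion molecule Cadm1 from 529, 519.6 and 493 CPM to 728, 708 and 726 CPM. In both, the 3 treated libraries lay above all controls. Among genes that fell were Eogt, which glycosylates EGF repeats of Notch receptors and other proteins (312, 302 and 294 CPM to 198, 196 and 208 CPM), and Mgat5, which branches N-glycans (1097, 1105 and 1025 CPM to 811, 801 and 779 CPM). Enho, which encodes the peptide hormone adropin, fell by 1.65-fold, and Metrn, a secreted neurotrophic factor, by 1.56-fold. DMSO replicate 3 was the highest library for Enho (32.3, 31.5 and 41.4 CPM in the DMSO libraries) and Metrn, and both kept their calls without it.

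**Figure D3:**
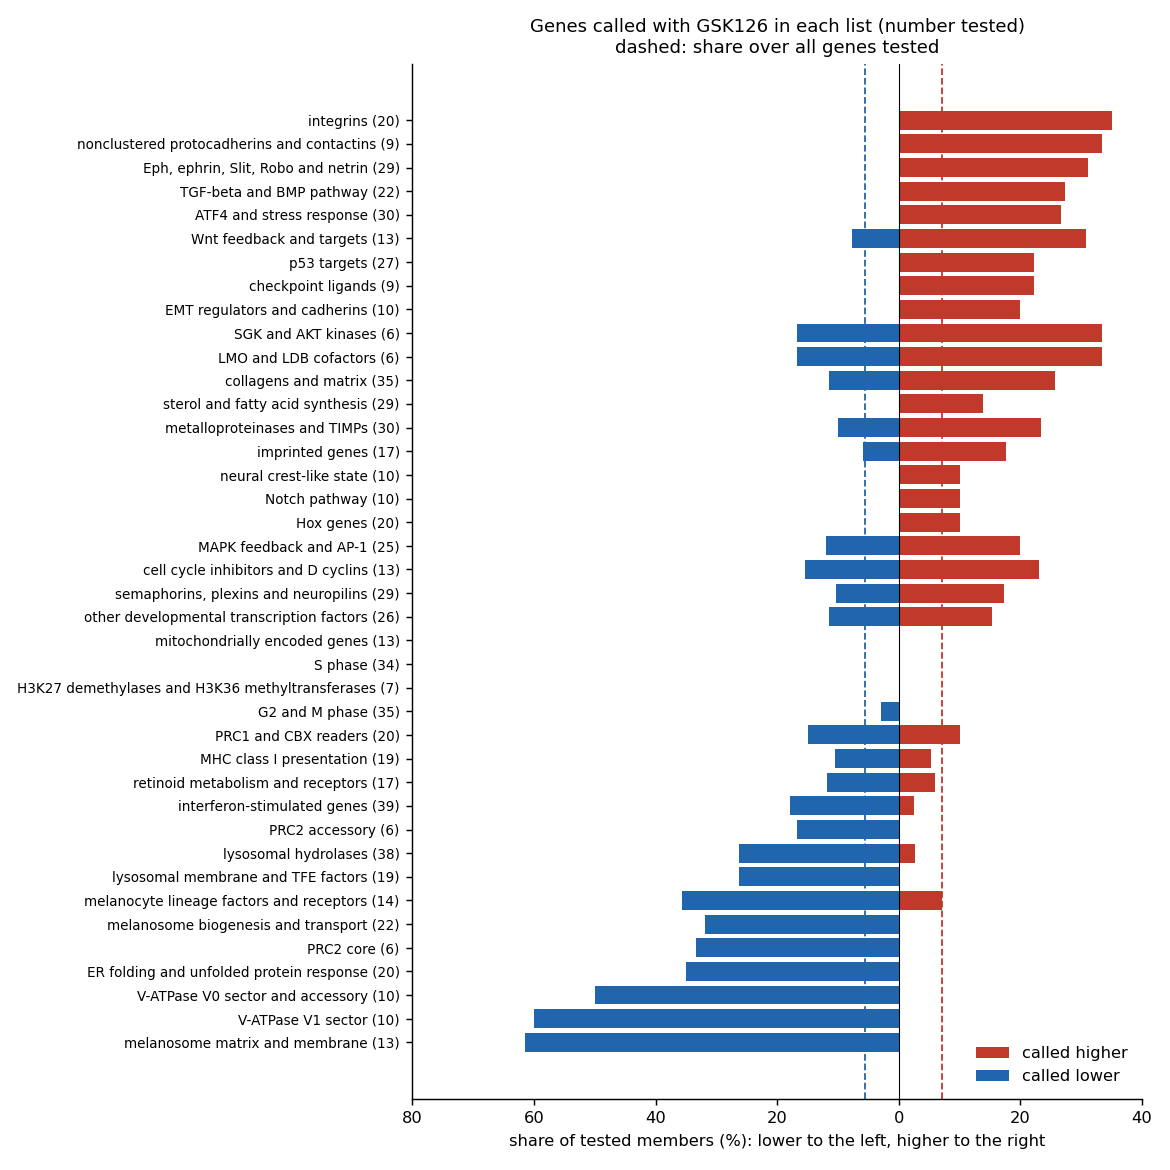
Share of the tested members of each gene list called higher (right, red) or lower (left, blue) with GSK126, with the number tested in brackets; dashed lines mark 7.15% and 5.54%, the shares over all genes tested. Integrins extend furthest to the right, and melanosome matrix and V-ATPase genes furthest to the left.

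The knockdown arm targeted EZH2 through its messenger RNA, with controls of its own and no library in common. The siRNA lowered Ezh2 from 215, 227 and 216 CPM to 37.6, 39.9 and 41.3 CPM (log2 -2.47 ± 0.05), a check that GSK126 does not allow. It changed 3953 genes, 26.1% of those tested. Of the 1084 genes that rose with GSK126, 262 rose (24.2%), 198 fell (18.3%) and 624 were not called with siEzh2; seen from the other side, the 262 were 13.1% of the 2000 genes that rose with siEzh2. Of the 839 that fell with GSK126, 106 fell (12.6%) and 245 rose (29.2%) with siEzh2, and the 106 were 5.43% of the 1953 genes that fell in the knockdown. Over all genes 13.2% rose and 12.9% fell with siEzh2. The difference between the arms was tested directly as the siEzh2 effect minus the GSK126 effect, and 3132 genes were called (20.7%; the knockdown effect was lower for 10.5% and higher for 10.1% of genes tested). The GSK126 effect enters this test as well as the choice of genes, so the counts are a description: of the 1084 genes that rose, the knockdown effect was lower for 575 and higher for 33, and of the 839 that fell it was higher for 467 and lower for 13.

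Several genes with the largest rises under GSK126 moved the opposite way in the knockdown, but the large rises as a set did not. Of the 133 genes that rose at least 2-fold with GSK126, 24 rose, 19 fell and 90 were not called with siEzh2. Their median log2 change with siEzh2 was 0.03, against -0.01 over all genes tested. Sema3c, Pcdh17, Cntn1 and Mest, given here, were also chosen for their large difference between the arms. Sema3c fell with siEzh2, from 12.2, 15.3 and 11.7 CPM to 6.88, 7.35 and 6.97 CPM (log2 -0.89 ± 0.10), and the effects differed by -3.35 ± 0.14 (adjusted p = 8.60e-13). Pcdh17 went from 15.1, 14.9 and 14.4 CPM to 8.59, 8.21 and 7.92 CPM (difference of effects -3.04 ± 0.12, adjusted p = 3.25e-13). Cntn1 fell from 49.2, 52.3 and 52.6 CPM to 23.6, 23.7 and 21.9 CPM, with a difference of -2.69 ± 0.10. For all 3, the scr libraries lay above the DMSO libraries, so the arms started from different levels. Mest and Ngfr also fell with siEzh2 (-0.92 and -1.24 on the log2 scale), and Lmo2 was not called (-0.26 ± 0.18).
Among the genes that fell with GSK126, Brca1 rose with siEzh2 from 180.0, 183 and 173 CPM to 403, 358 and 375 CPM, a difference of effects of 1.69 ± 0.08 (adjusted p = 8.99e-12). Here the scr libraries stood near the level of the GSK126 libraries. Dhrs3 rose with siEzh2 (log2 0.76), as did Sgk2 (0.46), Mlph (1.13) and Mgat5 (1.04). Pmel rose from 3259, 3259 and 3007 CPM to 3917, 4018 and 4029 CPM (log2 0.33), and its scr level was also near the GSK126 level. By list, siEzh2 raised 8 of 13 melanosome matrix genes and 26 of 39 interferon-stimulated genes and lowered none of either, where GSK126 lowered 8 and 7. Of the 34 S phase genes 20 fell with siEzh2.

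Other genes moved the same way in both arms. Itgb8 rose with siEzh2 from 0.482, 0.508 and 0.412 CPM to 1.38, 1.57 and 1.55 CPM (log2 1.67 ± 0.20), and the difference between the effects was 0.08 ± 0.25 (adjusted p = 0.884). Sgk1 rose in both arms, by 1.36 with GSK126 and 0.97 with siEzh2, and the effect was smaller in the knockdown (difference -0.39, adjusted p = 0.00891). Bmi1 rose by 0.44 and 0.32, Mgll, a lipase for monoglycerides, by 0.55 and 1.04, and Dnajc1 by 0.90 and 0.45. Mmp15 fell in both arms (log2 -0.82 and -1.42).

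**Figure D4:**
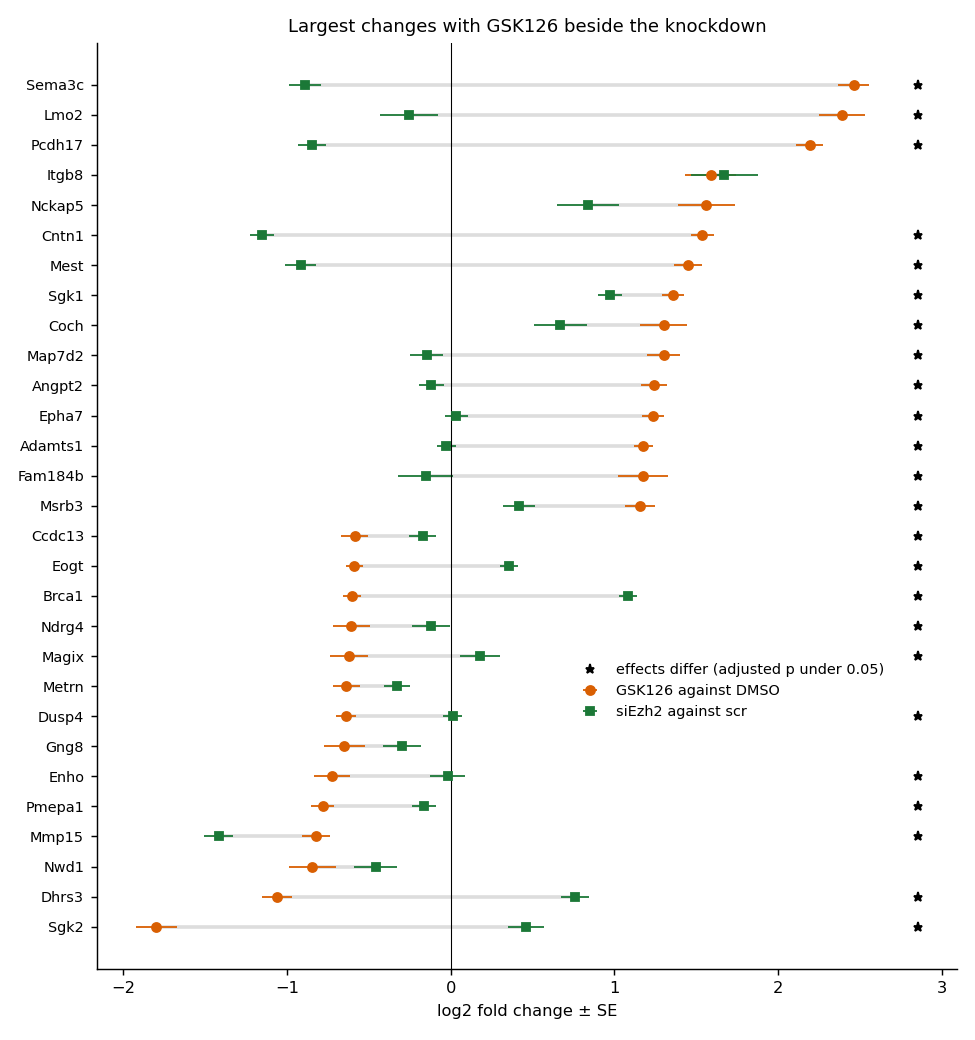
Log2 fold change ± SE (horizontal axis) of 15 of the largest increases and 14 of the largest decreases with GSK126 (orange circles), each joined to the value of the same gene for siEzh2 against scr (green squares); stars mark genes whose 2 effects differed at an adjusted p under 0.05. Sema3c, Pcdh17, Cntn1 and Mest lie on opposite sides of 0 in the 2 comparisons, and Itgb8 coincides.

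DZNep was given at the same dose as GSK126, for a time that the labels do not give, and compared with it directly, since both share the DMSO libraries. DZNep differed from GSK126 for 9791 genes (64.6% of those tested, 31.7% lower and 32.9% higher with DZNep), and from DMSO for 9434 (62.3%). For Sema3c the log2 difference, DZNep minus GSK126, was -3.99, and for Lmo2 it was -4.41; both genes were chosen for their change with GSK126, which enters this difference, so the values are a description. Against DMSO, the values side by side were 2.46 and -1.53 for Sema3c with GSK126 and DZNep, 1.36 and 1.89 for Sgk1, and -0.55 and -0.29 for Pmel.

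Genes that changed at least 2-fold with GSK126 in either direction were mostly weakly expressed in these cells. The scr libraries are on neither side of the comparison, but they share its filter, scaling and estimate of the spread. In them the median level was 0.499 CPM for the genes that rose at least 2-fold, and 90 of 133 (67.7%) lay below 1 CPM. For those that fell at least 2-fold it was 0.34 CPM, with 15 of 19 (78.9%) below 1 CPM, against a median of 18.6 CPM and 17.6% below 1 CPM over all genes. With a minimum of 1 CPM in 3 libraries 72 genes rose at least 2-fold. The promoters of genes that rose at least 2-fold were less often rich in CG (ratio of observed to expected of at least 0.6 and GC of at least 50%): 31 of 98 with a RefSeq window (31.6%), and 12 of 30 for genes that fell at least 1.5-fold, against 69.2% of 10395 tested genes and 39.5% of genes below 1 CPM. The genes that rose also had longer transcripts. The median length was 4.5 kb for genes that rose, 2.98 kb for those that fell and 3.06 kb for all tested. With the genes split by transcript length into 5 classes of equal size, from the shortest to the longest class the share that rose went from 1.75% to 14.7% and the median log2 difference from -0.06 to 0.04.
This trend moved with 1 library. The median level of the longest class minus that of the shortest, each library set against the mean of the DMSO libraries, was -0.141 log2 units in DMSO replicate 3, 0.101 and 0.053 in DMSO replicates 1 and 2, and 0.081 to 0.097 in the GSK126 libraries. Without DMSO replicate 3 the median log2 differences of the shortest and longest classes were -0.018 and -0.002, and the shares that rose 1.36% and 9.78%. The part of length in the calls was not tested.

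**Figure D5:**
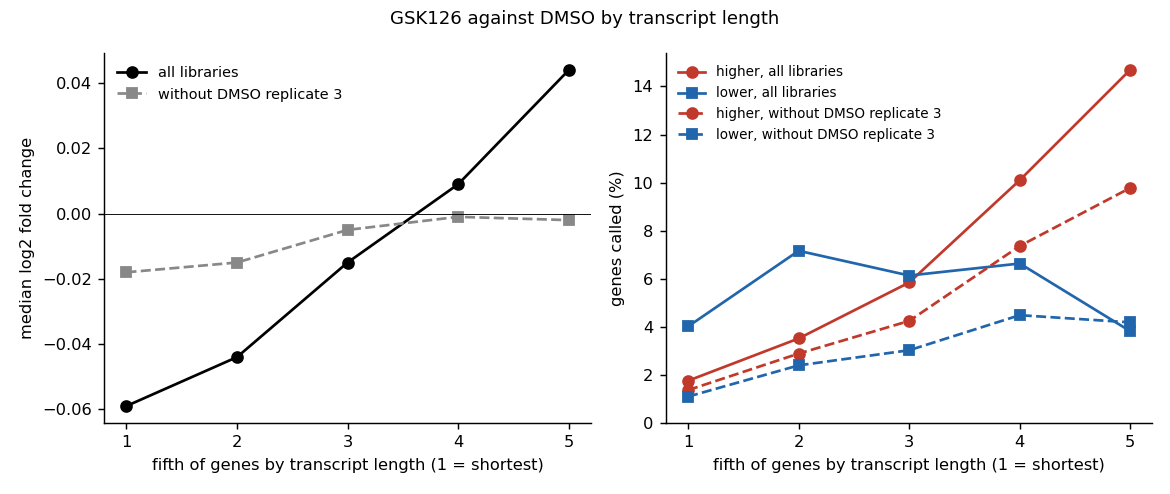
Median log2 fold change (left panel) and percentage of genes called higher or lower (right panel) for 5 classes of genes by transcript length, with all libraries (solid) and without DMSO replicate 3 (dashed). The slope of the median from -0.059 to 0.044 flattens to -0.018 and -0.002 without that library, while the share called higher still goes from 1.36% to 9.78%.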

How the data were processed

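RNA-seq libraries of B16-F10 cells (5 groups of 3) were analysed from the gene table deposited by the authors, which holds raw counts per gene. Per the submitters' processing notes, STAR, featureCounts and GRCm38 were used; their versions, the strand setting and the library kit were not stated there. Gene symbols, positions and overlaps were taken from GENCODE M21 on GRCm38 (45229 of 46078 identifiers matched; the other 849 held 0.0588% of counts), and promoters from RefSeq (GRCm38.p6). The members and gene lists were chosen with earlier results of these data known, and no p-value is adjusted over a list alone.

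From the counts, edgeR 4.0.16 in R 4.3.3 was run with TMM scaling, the filterByExpr filter and 1 robust quasi-likelihood model holding a mean for each group over all 15 libraries, so that groups share 1 estimate of the spread. Calls are at an adjusted p under 0.05 (Benjamini-Hochberg over 15152 genes). Fold changes are those of the fitted model at its default settings, and the SE is the absolute log2 fold change divided by the square root of F. Distances and correlations between libraries use log2 CPM with a prior count of 2. CPM are TMM-scaled; 1 count equals 0.0154 to 0.0268 CPM in the 6 libraries. The common dispersion of 0.00409 corresponds to a coefficient of variation of 6.4% between libraries. The procedure was tested on simulated data.

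Genes named in the text are Ezh2 and Ezh1; the 15 largest increases and decreases among called genes without overlap between groups and a mean of at least 2 CPM; the 8 largest changes in CPM each way; called genes at 3 counts or fewer over the DMSO libraries; called members of lists (all where 8 or fewer, otherwise the 5 smallest p each way); and the 6 largest differences each way between the siEzh2 and GSK126 effects. Genes named as not called or not tested are list members named after their values were seen. A few genes that this rule names are not reported here. Promoter windows that overlap an annotated exon or lie on chromosome 18 were passed over for printing. Alternatives were DESeq2 1.42.0, other scalings and filters, a fit of the 6 libraries, a replicate block, each library left out and, added after seeing the data, a fit without the siRNA arm.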

Additional observations from a re-analysis of the deposited data

Results flagged for a closer look

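The siRNA against Ezh2 and GSK126 were compared by the test of the difference of their effects itself for the genes with the 15 largest increases and decreases and the 6 largest differences each way between the arms, and 28 of those reported here differed (edgeR, adjusted p under 0.05 over all genes). Other genes named above differed too: of the 212 chosen by rule, 161 did, against 20.7% of all genes tested. The 6 each way were drawn from genes already called in this test. Most of the others were chosen for their GSK126 change, which enters the test, so these counts are a description. Values are the siEzh2 log2 change minus the GSK126 log2 change. The knockdown effect was lower for Sema3c (-3.35), Cdsn (-3.32), Pcdh17 (-3.04), Cntn1 (-2.69), Lmo2 (-2.65), Mest (-2.37), Map7d2 (-1.45), Angpt2 (-1.36), Fam184b (-1.33), Adamts1 (-1.2), Epha7 (-1.2), Msrb3 (-0.74), Coch (-0.63), Mmp15 (-0.6) and Sgk1 (-0.39). It was higher for Ccdc13 (0.41), Ndrg4 (0.49), Pmepa1 (0.62), Dusp4 (0.65), Enho (0.71), Magix (0.8), Eogt (0.95), Ripor2 (1.63), Hs3st1 (1.67), Brca1 (1.69), Gbp2 (1.7), Dhrs3 (1.82) and Sgk2 (2.26). For Cdsn, a corneodesmosome protein, the control groups also differed: 5.55, 4.78 and 5.02 CPM with DMSO, 7.62, 7.72 and 11.7 CPM with GSK126, 26.9, 30.4 and 28.1 CPM with scr and 4.71, 4.97 and 5.34 CPM with siEzh2. Hs3st1 lost its GSK126 call without any 1 of the 6 libraries. Groups of 3 libraries were not searched for single outlying values.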

How the results depend on the processing

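No call turned the other way under any of the 14 alternatives. Of 212 named genes, 140 kept their side of the threshold in every alternative that gave them an adjusted p, and 72 did not. A few named genes had no adjusted p with DESeq2, with the minimum of 1 CPM in 3 libraries or in the fit of the 6 compared libraries. The fit of the 6 compared libraries alone called 1131 genes (721 rose, 410 fell), and the fit without the siRNA arm, chosen after seeing the data, found 505 that fell. At least 2-fold, 72 genes rose and 4 fell with a minimum of 1 CPM in 3 libraries; the number that fell at least 2-fold was 12 with DESeq2, 30 with no filter, 6 in the fit of 6 libraries and 12 without the siRNA arm. Leaving out 1 library gave 1183 to 2490 genes called, 731 to 1249 that rose, 422 to 1241 that fell, 105 to 153 that rose and 7 to 27 that fell at least 2-fold, and 2573 to 3313 for the difference between the siEzh2 and GSK126 effects. The highest counts came without DMSO replicate 1. With library totals alone, 1114 rose and 615 fell. No pairing by replicate number was seen: same-numbered DMSO and GSK126 libraries deviated with correlations of 0.0914, -0.000755 and 0.0343. Deviations within groups of 3 are tied to each other, so these values cannot show that pairing is absent. The fit with a replicate block called 1937 genes. Of 1923 calls, 1826 remained under the block. Depth limits the lowest genes: 1 count equals 0.0154 to 0.0268 CPM, so levels far below 1 CPM rest on few counts.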
